A study of Ovis aries with 12 samples.

Results

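Small-RNA libraries of sheep pulmonary artery endothelial cells fell on 2 sides of a wide gap in miR-143, and the comparison here asks which other miRNAs went with that gap. Libraries were selected on the level of oar-miR-143. A library was placed on the miR-143-high side when that entry reached 50000 CPM (counts per 1000000, the count of an entry over the counts of all entries in the library) and on the miR-143-low side otherwise. All 12 libraries of the series entered. The high side held control libraries 1, 3 and 6 and PPHN libraries 7, 9 and 12. The low side held control libraries 2, 4 and 5 and PPHN libraries 8, 10 and 11, so that each side had 3 libraries of each surgery group. The sides were set by a measured value and are not groups of the study, and p-values for them describe an association within these libraries.

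Controls were lambs with sham surgery. Lambs of the PPHN group, a model of persistent pulmonary hypertension of the newborn, had the ductus arteriosus tied in utero at about 125 days of gestation and kept closed for 5 to 7 days. Per the labels, the cells of both groups came from the main pulmonary artery by collagenase digestion, were purified with beads coated with CD31 antibody and were cultured in DMEM with serum, at passages 2 to 5. The labels do not name an animal for each library, so the p-values measure the spread between libraries, part of which may be technical.

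miRNAs are short RNAs that guide Argonaute proteins to matching sites in messenger RNAs and lower the output of those messages. miR-143 and miR-145 are cut from 1 shared primary transcript, are abundant in contractile smooth muscle of vessels, where serum response factor and myocardin drive them, and keep that muscle in its contractile state. Endothelial cells are instead marked by miR-126, which lies in an intron of the endothelial gene EGFL7 and sustains signalling by vascular endothelial growth factor. In mammals other than sheep, miR-143 in endothelial cultures has been described both as made by the cells and as taken up from neighbouring muscle cells.

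The choice of libraries rested on oar-miR-143, and its values are given as a description. On the high side it stood at 179764, 234509 and 263579 CPM in control 1, 3 and 6, and at 97047, 191734 and 160496 CPM in PPHN 7, 9 and 12. On the low side it stood at 2730, 4771 and 9576 CPM in control 2, 4 and 5, and at 2433, 18925 and 2624 CPM in PPHN 8, 10 and 11. The library just inside the threshold was PPHN 7 and the one just outside was PPHN 10, with no library between 18925 and 97047 CPM. As a share of all counts, miR-143 took 9.70% to 26.4% on the high side and 0.243% to 1.89% on the low side, and the 95% Clopper-Pearson intervals of single libraries, which cover counting error only, reached at most 0.0387 percentage points to either side.

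miR-145, from the same transcript, followed the same split at a far lower level, and is likewise given without a test. The entry ssc-miR-145-5p stood at 92.6, 169 and 195 CPM in control 1, 3 and 6 and at 44.4, 66.3 and 65.6 CPM in PPHN 7, 9 and 12. On the low side it stood at 2.44, 5.10 and 3.64 CPM in control 2, 4 and 5, and at 1.13, 5.83 and 1.33 CPM in PPHN 8, 10 and 11. All 6 high libraries lay above all 6 low libraries. Counts of oar-miR-143 were 935 to 3248 times those of ssc-miR-145-5p in the 12 libraries, although both come from 1 transcript. The 4 entries of miR-143 and miR-145 were left out of everything that follows, library sizes included, and levels below are CPM of the other 466 entries after TMM scaling.

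**Figure D1:**
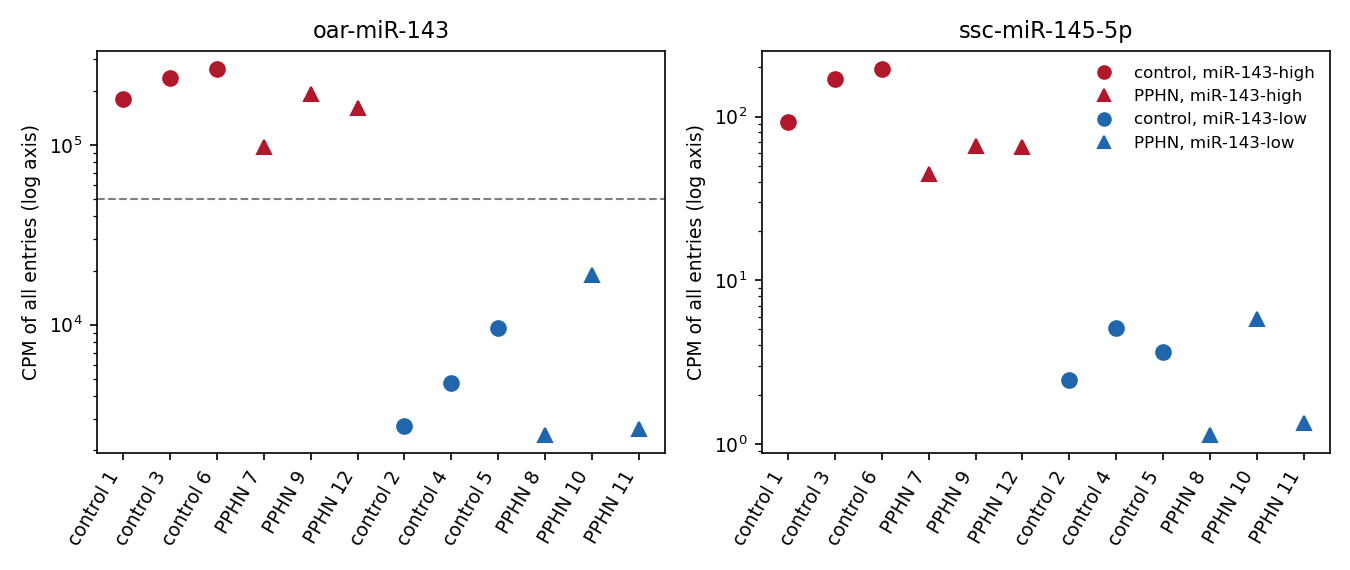
Level of oar-miR-143 (left) and ssc-miR-145-5p (right) in each library, in CPM of all entries on log axes; the dashed line is the threshold of 50000 CPM. Circles are control and triangles PPHN libraries; red is the high side and blue the low side. No library lies between PPHN 10 at 18925 CPM and PPHN 7 at 97047 CPM of miR-143, and both sides hold libraries of both surgery groups.

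The libraries held 2250077 to 17740932 counts, 4697471 or more on the high side and 11171643 or fewer on the low side (exact two-sided permutation p = 0.325 over 400 assignments of side within the surgery groups, smallest possible p 0.005). Before the comparisons, 3 low libraries have to be set apart. The endothelial marker mmu-miR-126b-3p was scarce in control 2 (162 CPM), PPHN 8 (193 CPM) and PPHN 11 (195 CPM), whereas the other 9 libraries held 10983 to 125743 CPM. These 3 were also the libraries with the fewest counts. They make up 3 of the 6 low libraries, the others being control 4 (10983 CPM), control 5 (125743 CPM) and PPHN 10 (68294 CPM). The log2 level of this entry averaged 15.4 on the high side and 11.5 on the low side (exact permutation p = 0.105). Control 5 and PPHN 10 were the low libraries with the most of this entry, so leaving out either had to widen the difference. It went from 3.93 to 5.02 without control 5 (exact permutation p = 0.015) and to 4.84 without PPHN 10 (exact permutation p = 0.035). Without any other single library the exact permutation p was 0.105 to 0.175. Because 3 low libraries held so little miR-126, the comparison was also made in the 9 libraries without control 2, PPHN 8 and PPHN 11. Its values are given with some results below and together further on.

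Across the 466 entries, edgeR's quasi-likelihood test with surgery as a covariate called 0 entries (0%) past 0.05 after Benjamini-Hochberg adjustment, and the smallest adjusted value was 0.0758. Unadjusted, 51 entries (10.9%) had a p under 0.05, of which 24 (5.15%) stood higher and 27 (5.79%) lower on the high side, where 23.3 would arise with no difference. DESeq2 called 24 of the 375 entries to which it gave an adjusted p (6.4%), 12 higher (3.2%) and 12 lower (3.2%). limma-voom called 0, with 96 at an unadjusted p under 0.05 (20.6%), 72 higher (15.5%) and 24 lower (5.15%). The edgeR test called 8 entries without control 5 and 3 without PPHN 10. Since no entry passed the edgeR threshold with all libraries, the entries below are described by their levels. The direction of small differences depends on the scaling: the median log2 fold change of all entries was 0.04 with TMM and -0.11 with upper-quartile scaling, which gave 21 higher and 46 lower entries at an unadjusted p under 0.05.

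Entries of the miR-133 family and of fibroblast miRNAs were among those with the widest differences. In a bulk culture, more cells of a type and more RNA per cell cannot be told apart, and the part of other cell types in these differences was not tested. The muscle list held only 1 entry, oar-miR-133, so its values describe that family and not muscle miRNAs at large. oar-miR-133, of a family made mainly in striated muscle and heart and also in vascular smooth muscle, stood at 172, 49.7 and 80.4 CPM in the high control libraries and at 119, 115 and 221 CPM in the high PPHN libraries. Among the low libraries it stood at 17.3, 3.94 and 16.2 CPM in control 2, 4 and 5 and at 3.31, 33.7 and 1.78 CPM in PPHN 8, 10 and 11. The sides did not overlap, the nearest libraries being control 3 at 49.7 CPM and PPHN 10 at 33.7 CPM. The means were 126 ± 62.2 and 12.7 ± 12.3 CPM (SD, n = 6 each), a 9.66-fold difference (log2 3.27, SE 0.73; edgeR adjusted p = 0.0784). DESeq2 gave an adjusted p of 0.000109. A second entry of the family, rno-miR-133c, did not overlap either, at 11.6 to 72.1 CPM against 0.994 to 11.2 CPM, and was 8.92-fold higher (edgeR adjusted p = 0.0758). Its reads may in part be those of oar-miR-133, since the names differ little in sequence.

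The list of fibroblast and other mesenchymal miRNAs had 12 entries, of which 10 were higher and 2 lower on the high side, with a median log2 fold change of 1.68. Of all 466 entries, 246 were higher, with a median of 0.04. At an unadjusted p under 0.05, 5 of the 12 were higher and 0 lower, against 24 (5.15%) higher and 27 (5.79%) lower of all 466 entries. The list also holds entries of miR-140 and miR-152, and a miR-152 entry was its lowest, at a log2 fold change of -0.53. The summed level of the list was 7758 to 25025 CPM on the high side and 3009 to 8741 CPM on the low side. Entries of this list are not independent, since 5 of them are versions of miR-214 and oar-miR-199a-3p shares most of its pattern with bta-miR-3604.

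bta-miR-199b, from a family made with miR-214 in connective tissue cells, was counted 1445, 1059 and 25 times in control 1, 3 and 6 and 323, 53 and 212 times in PPHN 7, 9 and 12. In the low libraries it was counted 3, 5 and 0 times in control 2, 4 and 5 and 4, 2 and 2 times in PPHN 8, 10 and 11. The sides did not overlap, and the low libraries lay around the limit of 3 counts, which is 0.226 to 1.34 CPM. Its mean was 112 ± 155 CPM on the high side and 0.608 ± 0.456 CPM on the low side (SD, n = 6 each). The fitted log2 fold change of 7.16 (SE 1.40; edgeR adjusted p = 0.0758) depends on the prior count because the low counts are so few.

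oar-miR-199a-3p, the abundant arm of the family, stood at 4274, 8976 and 3070 CPM in the high control libraries and at 3637, 2134 and 4676 CPM in the high PPHN libraries. On the low side it stood at 2141, 2086 and 1803 CPM in control 2, 4 and 5 and at 682, 2081 and 61.1 CPM in PPHN 8, 10 and 11. The sides touched, since PPHN 9 at 2134 CPM lay just under control 2 at 2141 CPM, and control 3 stood well above the rest. The difference was 3.16-fold (log2 1.66, SE 0.62; edgeR adjusted p = 0.335). Without the 3 miR-126-poor libraries the log2 fold change was 1.21 (SE 0.41) and the sides did not overlap. bta-miR-3604, named after its values were seen, gave a log2 fold change of 1.69.

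miR-214 shares a primary transcript with miR-199a inside an intron of DNM3 in mammals, and in the sheep gene table the MIR199A hairpin lies within DNM3. The low-abundance entry ipu-miR-214 stood at 2.64 to 18.3 CPM on the high side and 0 to 3.44 CPM on the low side. It was 7.86-fold higher (log2 2.97, SE 0.69, edgeR adjusted p = 0.0842), but was counted only 0, 2 and 1 times in PPHN 8, 10 and 11. The abundant entry bta-miR-214 stood at 77.2 to 362 CPM on the high side and 0 to 98.2 CPM on the low side, with a log2 fold change of 1.81 (SE 0.94; edgeR adjusted p = 0.522). PPHN 8 at 8.29 CPM and PPHN 11 at 0 CPM were far below the other low libraries, and without the 3 miR-126-poor libraries the log2 fold change of bta-miR-214 was 1.16. The miR-214 levels of both sides thus overlapped in every entry described.

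**Figure D2:**
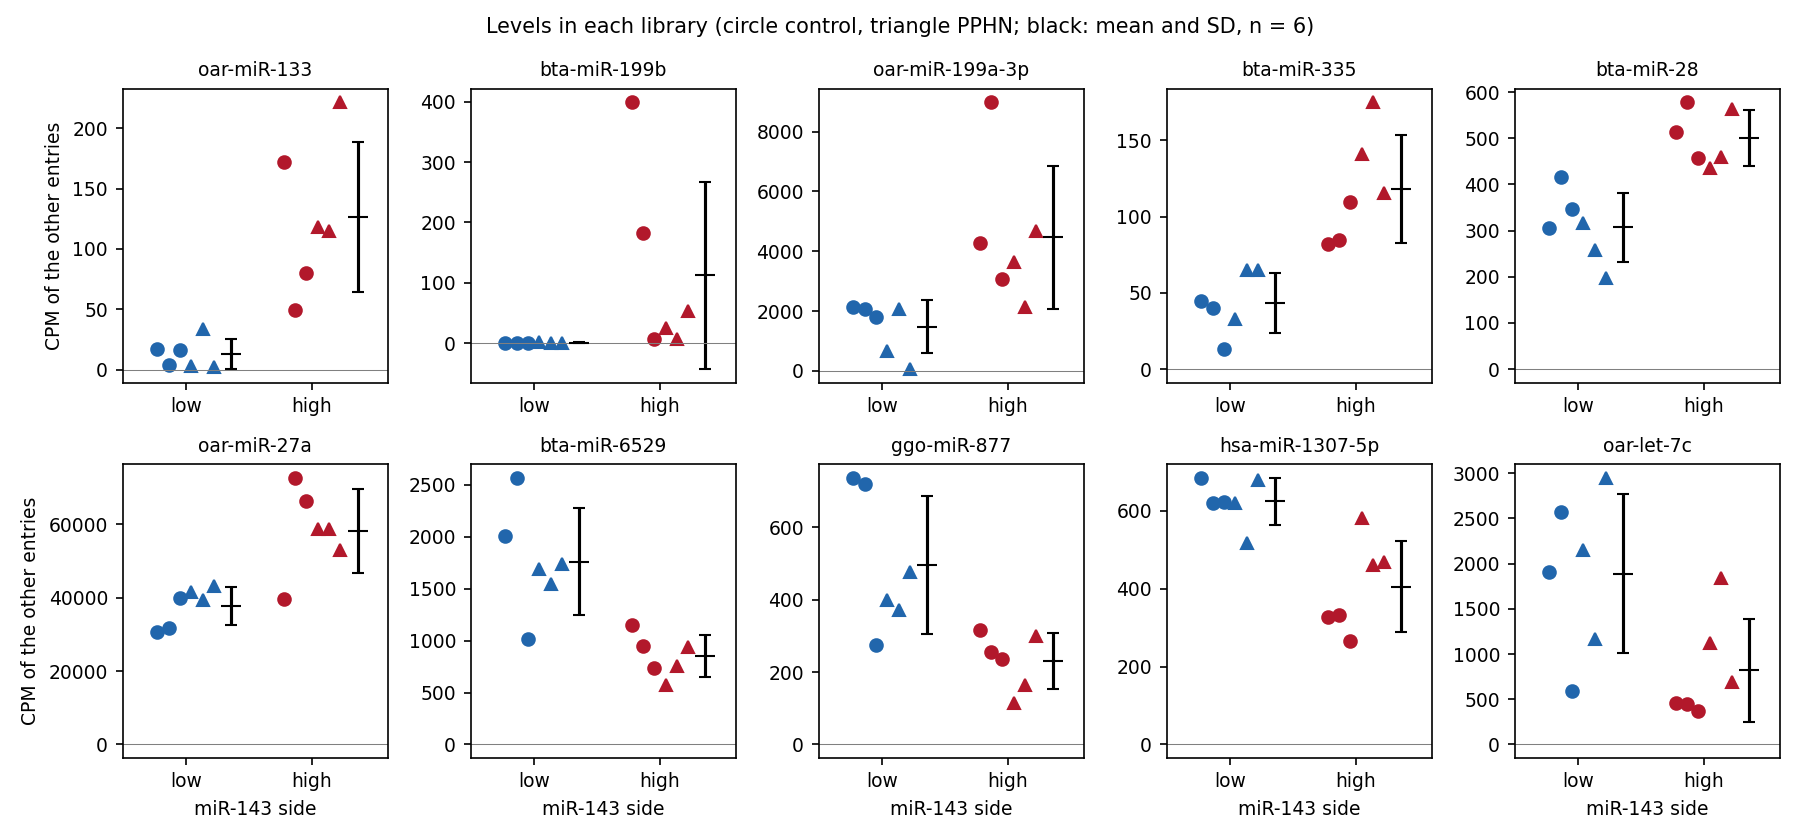
Level of 10 entries in each library, in CPM of the other 466 entries after TMM scaling, on the low (blue) and high (red) side; circles are control and triangles PPHN libraries, and black marks give the mean and SD (n = 6). The sides are apart for oar-miR-133, bta-miR-199b, bta-miR-335 and bta-miR-28, and touch or overlap for the other 6 entries.

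In all, 5 entries (1.07%) lay higher in all 6 high libraries than in every low library, and 0 (0%) lay lower: bta-miR-199b, rno-miR-133c, oar-miR-133, bta-miR-335 and bta-miR-28. bta-miR-335, from a miRNA that sits in an intron of the imprinted gene MEST in mammals and is known from mesenchymal stem cells, stood at 82.3, 84.4 and 110 CPM in the high control libraries and at 141, 175 and 116 CPM in the high PPHN libraries. Among the low libraries it stood at 44.8, 39.9 and 13.2 CPM in control 2, 4 and 5 and at 33.1, 64.9 and 65.1 CPM in PPHN 8, 10 and 11. The lowest high library, control 1, lay above the highest low library, PPHN 11. The difference was 2.73-fold (log2 1.45, SE 0.32; edgeR adjusted p = 0.0758). The other arm, hsa-miR-335-3p, was 2.88-fold higher, with overlapping sides of 169 to 566 and 64.3 to 266 CPM (edgeR adjusted p = 0.129).

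bta-miR-28, which lies in an intron of LPP in humans, stood at 514, 578 and 457 CPM in the high control and 435, 459 and 563 CPM in the high PPHN libraries. In the low libraries it stood at 306, 417 and 348 CPM in control 2, 4 and 5 and at 316, 258 and 197 CPM in PPHN 8, 10 and 11. The gap was narrow, from 417 to 435 CPM, and the difference was 1.65-fold (log2 0.72, SE 0.18; edgeR adjusted p = 0.0914). The far more abundant other arm, hsa-miR-28-3p, named after its values were seen, was 1.43-fold higher with overlapping sides.

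Among the abundant miRNAs, oar-miR-21, which is induced in many growing and injured tissues, took 24.9% ± 4.19 of the counts outside miR-143 and miR-145 on the high side and 18.4% ± 2.42 on the low side (SD, n = 6 each). By the exact permutation of sides within surgery groups p was 0.005, two-sided and the smallest possible. The other library quantities tested in this way gave an exact permutation p of 0.105 to 0.615. None of these values was adjusted for the number of quantities tested. The shares were 27.2%, 21.0% and 19.9% in control 1, 3 and 6 and 29.1%, 29.4% and 22.8% in PPHN 7, 9 and 12. They were 18.3%, 18.1% and 17.3% in control 2, 4 and 5 and 15.2%, 22.6% and 18.9% in PPHN 8, 10 and 11. Within each surgery group every high library had a larger share than every low one, though by little between PPHN 12 and PPHN 10. After TMM scaling the level of oar-miR-21 was 1.53-fold higher (log2 0.61, SE 0.17, edgeR adjusted p = 0.131). Without control 2, PPHN 8 and PPHN 11 its log2 fold change was 0.45 (edgeR adjusted p = 0.631).

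The miR-23, miR-27 and miR-24 list had 5 of its 5 members higher (median log2 fold change 0.63), 2 of them at an unadjusted p under 0.05. Among all 466 entries, 246 were higher, and 24 (5.15%) were higher at that p. oar-miR-27a, studied as a regulator of fat-cell differentiation and of angiogenesis, stood at 39591, 72748 and 66336 CPM in the high control and 58620, 58668 and 52898 CPM in the high PPHN libraries. On the low side it stood at 30581, 31832 and 39973 CPM in control 2, 4 and 5 and at 41497, 39289 and 43112 CPM in PPHN 8, 10 and 11. Control 1 was the high library that fell among the low ones, and the difference was 1.55-fold (log2 0.63, SE 0.15; edgeR adjusted p = 0.0914). oar-miR-23a, whose hairpin neighbours that of miR-27a in the sheep gene table, was 1.91-fold higher (edgeR adjusted p = 0.345). oar-let-7b, of the let-7 family that restrains growth and maintains differentiation, stood at 2910 ± 231 CPM on the high and 1964 ± 422 CPM on the low side (SD, n = 6 each), a 1.48-fold difference (edgeR adjusted p = 0.129).

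The X-linked cluster of miR-424, miR-503, miR-542 and miR-450, in which miR-424 is known to restrain cyclins in endothelial cells, had 7 of 7 entries higher. Its median log2 fold change was 0.97, with 3 entries at an unadjusted p under 0.05. For comparison, 246 of all 466 entries were higher, and 24 (5.15%) were higher at that p. hsa-miR-424-5p stood at 35.9 to 98.1 CPM on the high and 12.3 to 46.4 CPM on the low side, 2.42-fold higher (edgeR adjusted p = 0.192). bta-miR-450a stood at 71.8 to 201 against 31.7 to 107 CPM, 2.08-fold higher (edgeR adjusted p = 0.246). The median of the cluster was 0.31 within control and 1.48 within PPHN libraries, and 0.55 without the 3 libraries poor in miR-126. The wider miR-15 and miR-16 family, which shares members with that cluster, had 9 of 9 entries higher with a median of 0.37, which was 0.00 without those 3 libraries.

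The 4 entries of the miR-181 family, known for dampening inflammatory signalling in endothelium, were all higher, with a median of 0.57. The median over all 466 entries was 0.04, with 246 of them higher. oar-miR-181a stood at 7278 to 15770 CPM against 2910 to 9159 CPM, 1.63-fold higher (edgeR adjusted p = 0.371), and control 6 held the highest value. Without the 3 miR-126-poor libraries the family median was -0.04. hsa-miR-4454 had a wide spread, at 5.80, 736 and 269 CPM in control 1, 3 and 6 and at 361, 296 and 18.1 CPM in PPHN 7, 9 and 12. All low libraries lay between 8.53 and 33.0 CPM, so that control 1 lay below them and PPHN 12 among them, while 4 high libraries stood far above (log2 4.25, SE 1.06; edgeR adjusted p = 0.0914).

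Of the entries lower on the high side, the near copies bta-miR-6529 and bta-miR-6529b had the lowest p. bta-miR-6529 stood at 1149, 948 and 738 CPM in the high control and 576, 755 and 941 CPM in the high PPHN libraries. Among the low libraries it stood at 2007, 2566 and 1014 CPM in control 2, 4 and 5 and at 1690, 1548 and 1734 CPM in PPHN 8, 10 and 11. Control 5 was the low library that fell within the high range, and the difference was 2.08-fold (log2 -1.05, SE 0.23; edgeR adjusted p = 0.0758). bta-miR-6529b counted nearly the same reads, at 0.952 times the total. The other arm, mml-miR-6529-3p, was 1.88-fold lower (edgeR adjusted p = 0.139). Without control 5 all 3 passed the edgeR threshold, but leaving out the low library nearest the high side widens the gap by construction. With any other single library left out, the edgeR adjusted p of bta-miR-6529 was 0.0623 to 0.179.

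ggo-miR-877, which in humans comes from a spliced intron of ABCF1 rather than from a Drosha-cut hairpin, stood at 316, 254 and 237 CPM in the high control and 115, 165 and 299 CPM in the high PPHN libraries. In the low libraries it stood at 736, 719 and 274 CPM in control 2, 4 and 5 and at 399, 372 and 476 CPM in PPHN 8, 10 and 11. Control 5 again lay within the high range, and the difference was 2.15-fold (log2 -1.10, SE 0.29; edgeR adjusted p = 0.118). hsa-miR-1307-5p stood at 326, 332 and 265 CPM in the high control and 581, 460 and 467 CPM in the high PPHN libraries, and at 517 to 685 CPM on the low side. Only PPHN 7 reached the low range (1.59-fold lower; edgeR adjusted p = 0.129). ggo-miR-760, at 3.28 to 6.77 CPM against 5.37 to 29.0 CPM, was 2.98-fold lower (edgeR adjusted p = 0.0914), and control 5 was again the low library among the high ones.

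oar-let-7c differed from its relative let-7b in direction. It stood at 456, 448 and 372 CPM in the high control and 1121, 1842 and 695 CPM in the high PPHN libraries. On the low side it stood at 1904, 2576 and 589 CPM in control 2, 4 and 5 and at 2152, 1167 and 2951 CPM in PPHN 8, 10 and 11. In the controls the sides were apart, and in PPHN they overlapped; the overall difference was 2.61-fold (log2 -1.38, SE 0.42; edgeR adjusted p = 0.190). The let-7 list had 6 higher and 6 lower entries. In the sheep gene table the let-7c hairpin neighbours that of miR-99a, which oar-miR-99a reads did not follow: its log2 fold change was 0.08.

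A group of 9 entries of miRNAs that lie together in an intron of the chloride channel gene CLCN5 in mammals was noticed after the values were seen. All 9 were lower on the high side, with a median log2 fold change of -0.77 and 4 at an unadjusted p under 0.05. Of all 466 entries, 220 were lower, and 27 (5.79%) were lower at that p. All 9 were also lower without the 3 miR-126-poor libraries, which uses part of the same libraries. Since the group was picked by its values, these counts describe it and test nothing. bta-miR-502b stood at 5.13 to 10.4 CPM against 6.95 to 41.5 CPM (2.43-fold lower; edgeR adjusted p = 0.203). bta-miR-660, an abundant member named after its values were seen, stood at 1684 to 3344 CPM against 2009 to 7167 CPM (1.71-fold lower; edgeR adjusted p = 0.346). Outside that group, bta-miR-628 stood at 12.0 to 30.6 against 24.6 to 44.5 CPM (1.63-fold lower; edgeR adjusted p = 0.280).

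The endothelial list, which held versions of miR-126, miR-10, miR-99, miR-125, miR-139, miR-221 and miR-222, was split evenly, with 12 higher and 11 lower entries of 23 and a median log2 fold change of 0.00. At an unadjusted p under 0.05, 0 were higher and 4 lower, against 24 (5.15%) and 27 (5.79%) of all 466 entries. Its summed level was 57863 to 126571 CPM on the high and 32208 to 150432 CPM on the low side. mmu-miR-126b-3p had a log2 fold change of 0.57 (SE 1.41; edgeR adjusted p = 0.940), and -0.41 (SE 0.65) without the 3 libraries that hold little of it. These are edgeR fits of mean levels, a different measure from the 3.93 given earlier, which is a difference of averaged log2 levels. bta-miR-126-5p stood at 653 to 2178 CPM on the high side and at 4.64 to 3128 CPM on the low side. The lower entries of the list included hsa-miR-99b-3p (1.57-fold; edgeR adjusted p = 0.354; DESeq2 adjusted p = 0.0483) and bta-miR-99b (1.33-fold; edgeR adjusted p = 0.415).

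miR-221 and miR-222, which slow endothelial migration by lowering KIT, were lower in 4 of 4 entries, with a median of -0.96. Over the whole set, 220 of 466 entries were lower. cgr-miR-222-3p, a name picked once values were known, stood at 1139 to 2679 CPM on the high and 1170 to 5302 CPM on the low side (1.75-fold lower; edgeR adjusted p = 0.432). The 5302 and 4334 CPM at the top of the low side belonged to control 2 and PPHN 8. hsa-miR-222-5p stood at 14.7 to 34.3 CPM against 11.8 to 199 CPM, with control 2 at 199 CPM. Without the 3 miR-126-poor libraries the median of the 4 entries was 0.05. bta-miR-210, induced by hypoxia-inducible factor, stood at 4.15 to 52.2 CPM against 4.51 to 208 CPM, with PPHN 8 at 208 CPM (log2 -1.99, SE 0.90; edgeR adjusted p = 0.440; log2 -1.20, SE 1.31, without the 3 libraries).

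**Figure D3:**
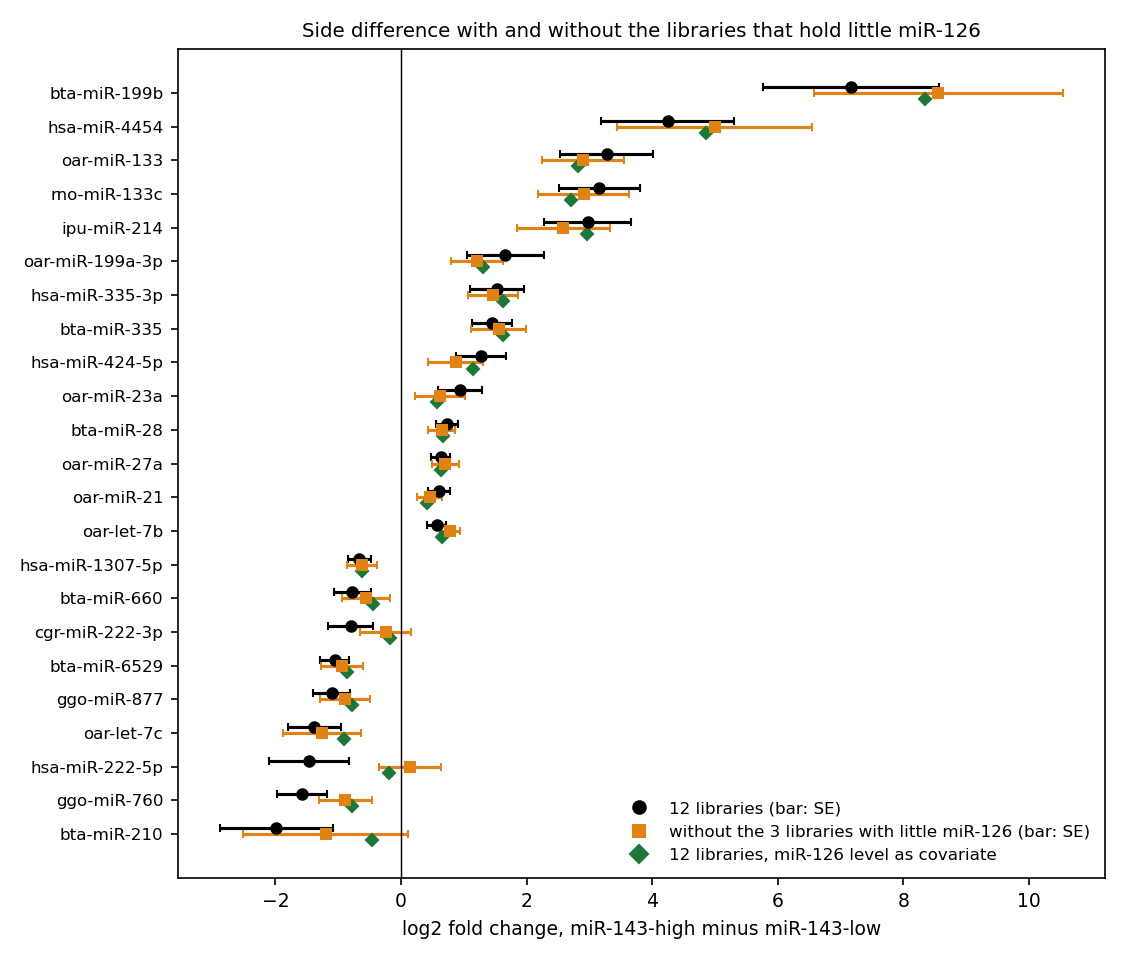
Log2 fold change, high minus low side, of 23 entries with all 12 libraries (black, bar SE), without control 2, PPHN 8 and PPHN 11 (orange, bar SE) and with the level of miR-126 as a covariate (green). oar-miR-133, bta-miR-199b, bta-miR-335, oar-miR-27a and hsa-miR-1307-5p stay on the same side of 0 in all 3 versions, while hsa-miR-222-5p moves from -1.47 to 0.14.

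Without the 3 miR-126-poor libraries, most of the fibroblast list's differences, and that of oar-miR-133, were smaller. The log2 fold change of oar-miR-133 was 2.90 (SE 0.66) against 3.27, and that of ipu-miR-214 was 2.59 (SE 0.74) against 2.97. For bta-miR-335 it was 1.55 (SE 0.43) against 1.45, not smaller. For bta-miR-199b it was 8.55 (SE 1.98), whose size depends on the prior count. The low libraries left, control 4, control 5 and PPHN 10, held 5, 0 and 2 counts of it. The fibroblast list had 10 of 12 entries higher and a median of 1.18 against 1.68. Of the other higher entries, oar-miR-21 stood at a log2 fold change of 0.45, oar-miR-27a at 0.70, oar-miR-23a at 0.63, oar-let-7b at 0.78, bta-miR-28 at 0.65 and hsa-miR-4454 at 5.00. Of the lower entries, bta-miR-6529 stood at -0.94, ggo-miR-877 at -0.89, hsa-miR-1307-5p at -0.63, oar-let-7c at -1.26, bta-miR-502b at -0.94 and bta-miR-628 at -0.82. The difference of ggo-miR-760 shrank most among those, from -1.57 to -0.89, and was -0.79 with the miR-126 level as a covariate. In this comparison of 6 high and 3 low libraries the edgeR test called 0 entries (0%), and 33 had an unadjusted p under 0.05 (7.08%), 24 higher (5.15%) and 9 lower (1.93%). The sides did not overlap for 12 entries (2.58%), 10 higher and 2 lower, and the 10 included oar-let-7b, hsa-miR-335-3p and oar-miR-199a-3p. With the level of miR-126 as a covariate in all 12 libraries, 0 entries were called and 24 had an unadjusted p under 0.05 (5.15%). That is near the 23.3 that would arise with no difference, against 51 (10.9%) without that covariate. The part of miR-126 in this drop was not tested.

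Markers of epithelial and blood cells were examined in the same way. In the epithelial list, 2 of 4 entries were higher and 2 lower, and its summed level was 486 to 1668 CPM on the high and 181 to 975 CPM on the low side. Within it, oar-miR-200b, which holds cells in an epithelial state, stood at 0 CPM in control 1 and 3 and at 0.244 CPM in control 6, while control 4 held 413 CPM and control 5 held 0.244 CPM. In PPHN it was present on both sides, at 35.6 to 98.4 CPM on the high and 37.7 to 166 CPM on the low side, and the fitted log2 fold change was -4.54 (SE 2.65; edgeR adjusted p = 0.570). DESeq2 called it lower on the high side (log2 -5.44; DESeq2 adjusted p = 0.0141). The 2 blood-cell entries summed to 58.2 to 960 CPM on the high and 15.2 to 588 CPM on the low side, and bta-miR-486, made in red blood cells and muscle, had a log2 fold change of 0.09 (SE 0.75).

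A further list held miRNAs studied in the switch of smooth muscle from a contractile to a dividing state, and was not tested. It had 7 higher and 7 lower entries of 14. Its median log2 fold change was -0.28, against 0.13 without the 3 miR-126-poor libraries. The median was 0.01 within control and -1.19 within PPHN libraries. The list holds oar-miR-21, described above as higher, and cfa-miR-31, which stood at 29.6 to 428 CPM against 3.42 to 831 CPM (edgeR adjusted p = 0.838). bta-miR-204, known to be low in arterial muscle in human pulmonary hypertension, stood at 675 to 3465 CPM against 513 to 3650 CPM (log2 0.30, SE 0.54; edgeR adjusted p = 0.919). The second most abundant miRNA, oar-miR-22-3p, stood at 101546 ± 19203 and 97652 ± 17846 CPM (SD, n = 6 each; edgeR adjusted p = 0.940).

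**Figure D4:**
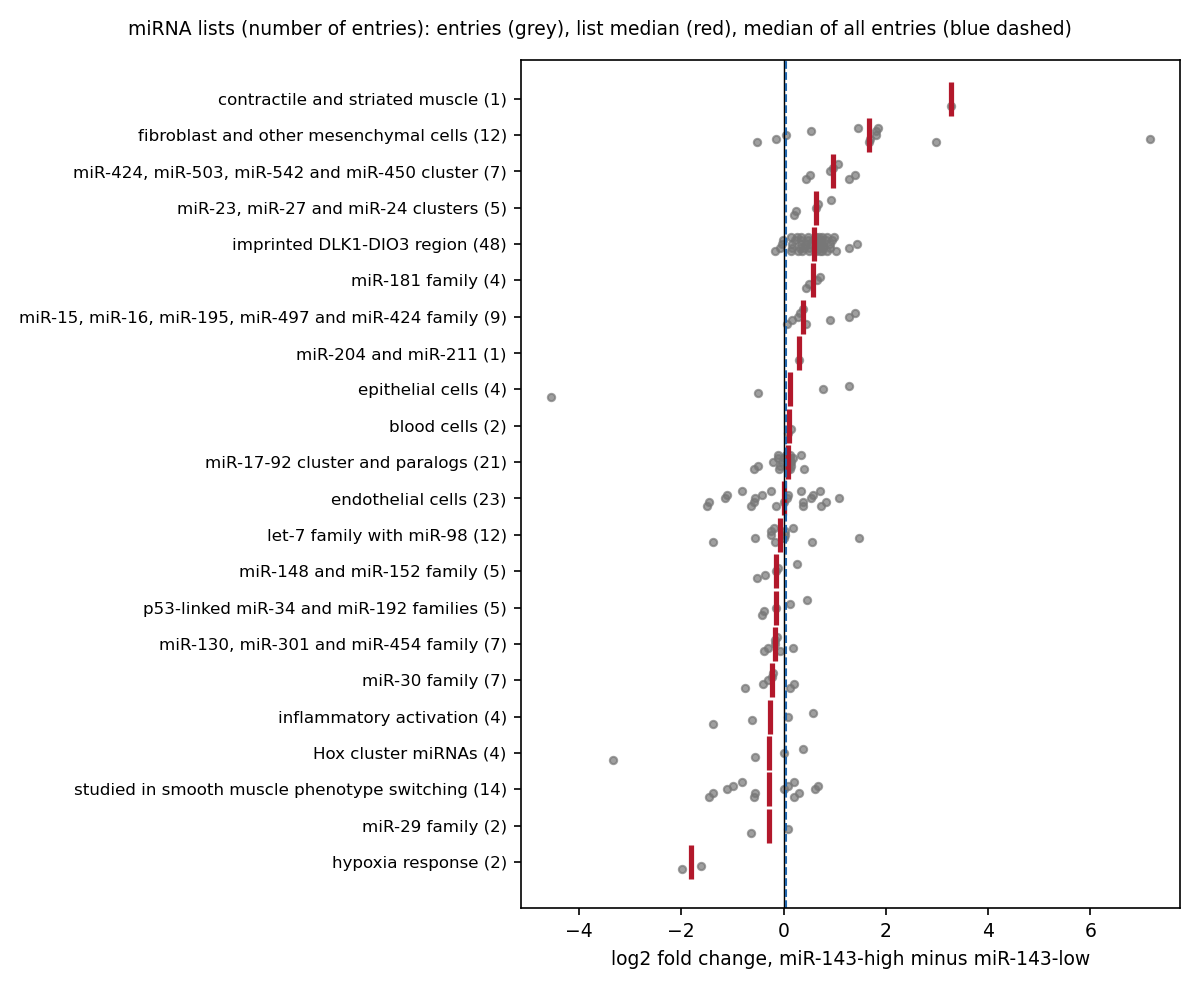
Log2 fold change, high minus low side, of each entry (grey) in 22 lists of miRNAs, with the list's median (red), the median of all 466 entries at 0.04 (blue dashed) and the number of entries in brackets. The fibroblast list has its median at 1.68 and the endothelial list at 0.00.

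The imprinted DLK1-DIO3 region holds a large cluster of miRNAs that are read from the maternal chromosome and are abundant in fetal and mesenchymal cells. Of its 48 entries, 44 were higher and 4 lower on the high side, with a median log2 fold change of 0.60, and 0 had an unadjusted p under 0.05. Higher entries made up 246 of all 466. The summed level of the list was 3649 to 11993 CPM on the high side. The low libraries held 493, 891 and 9165 CPM in control 2, 4 and 5, and 269, 1490 and 16553 CPM in PPHN 8, 10 and 11. The high libraries spanned a narrower range, and the low side held both the 4 lowest libraries and the highest. oar-miR-127, of this region, stood at 1893 to 5948 CPM on the high side and 127 to 8316 CPM on the low side (log2 0.74, SE 0.97; edgeR adjusted p = 0.872). oar-miR-539-3p had the lowest p of the region (log2 1.45, SE 0.91; edgeR adjusted p = 0.596). The median of the list was 1.37 within control and -0.13 within PPHN libraries, and 1.34 without the 3 miR-126-poor libraries, when 48 of 48 entries were higher; their reads come from 1 region and move together.

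The medians of the remaining lists ran from -0.28 to 0.08, against 0.04 for all entries. The miR-17-92 list had 13 higher and 8 lower entries (median 0.08), the miR-30 list 2 and 5 (median -0.24), the miR-130 list 1 and 6 (median -0.16) and the miR-148 list 1 and 4 (median -0.14). The inflammation list had 2 and 2 (median -0.26), the miR-29 list 1 and 1 (median -0.28) and the list of p53-linked miRNAs 2 and 3 (median -0.16). The Hox cluster list had 2 and 2 (median -0.28), with opposite medians of 1.66 within control and -2.19 within PPHN libraries. Of this list, hsa-miR-615-3p stood at 0 to 21.7 CPM on the high and 0 to 39.3 CPM on the low side (log2 -3.34, SE 1.45, edgeR adjusted p = 0.431). Under RLE and upper-quartile scaling the median of the miR-17-92 list was -0.01 and -0.08.

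Each surgery group held 3 high and 3 low libraries, so the side difference could be taken separately in each. Within control, edgeR called 0 entries (0%) and 28 had an unadjusted p under 0.05 (6.01%), and within PPHN the counts were also 0 (0%) and 28 (6.01%). The side difference had the same sign in both groups for 251 of 466 entries (53.9%). Among the 28 entries with an unadjusted p under 0.05 within control it had the same sign for 24 (85.7%), and among the 28 of PPHN for 25 (89.3%). The 2 groups share no library, but both were fitted in the same model with a shared spread, so their p-values are not independent. Near-identical entries also count more than once in these shares. The low side of each group held libraries poor in miR-126, and their part in the shared signs was not tested.

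There were 11 entries with an unadjusted p under 0.05 within both groups, of which 10 had the same sign. Higher in both were oar-miR-133 (log2 3.01 in control and 3.53 in PPHN), rno-miR-133c (3.30 and 3.01), bta-miR-199b (9.15 and 5.02), ipu-miR-214 (1.92 and 4.64), bta-miR-335 (1.50 and 1.40) and hsa-miR-4454 (5.17 and 3.32). Counts of bta-miR-199b in all low libraries, and of ipu-miR-214 in PPHN 8, 10 and 11, lay around the limit of 3 counts. The size of these folds therefore depends on the prior count. Lower in both were bta-miR-6529 (-0.98 and -1.13), its near copy bta-miR-6529b, ggo-miR-760 (-1.49 and -1.66) and ggo-miR-877 (-1.10 and -1.11). The exception was oar-miR-10a, a Hox cluster miRNA, at 2.06 in control and -2.06 in PPHN. For the difference of the side effect between the groups, edgeR called 0 entries (0%), and 12 had an unadjusted p under 0.05 (2.58%). Without PPHN 12 that count of calls was 5 and the count within PPHN was 6.

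**Figure D5:**
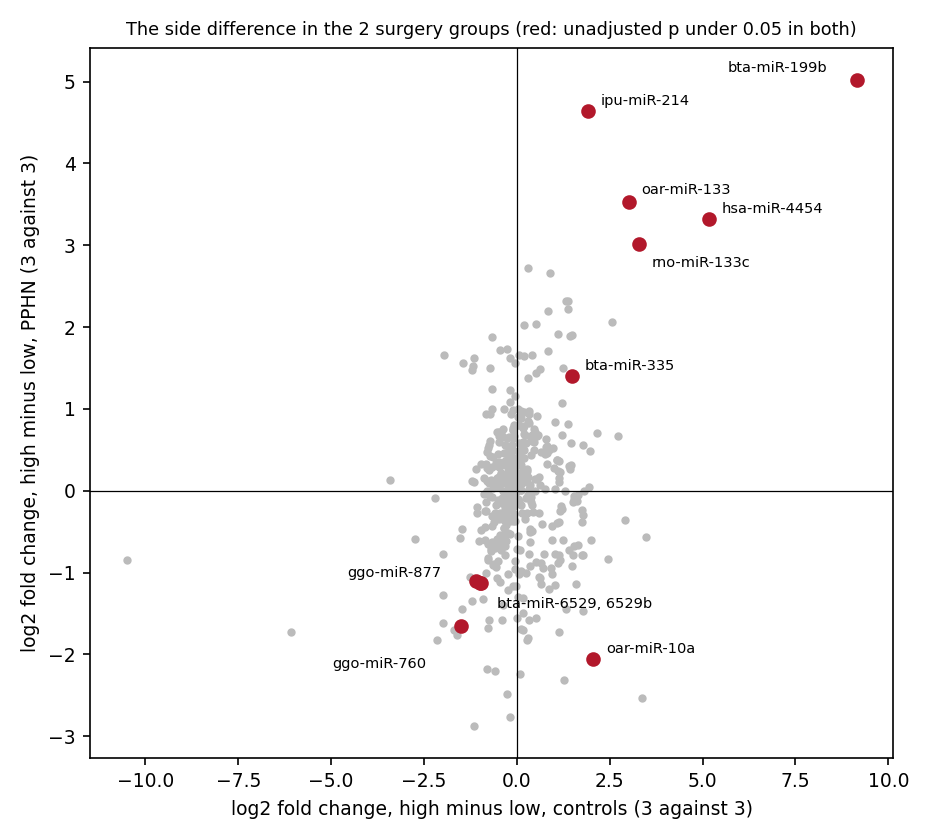
Log2 fold change, high minus low side, of 466 entries within the control libraries (x axis) and within the PPHN libraries (y axis), 3 against 3 in each; red marks the 11 entries with an unadjusted p under 0.05 in both. In 10 of the 11 the sign is the same, with oar-miR-133, bta-miR-199b, ipu-miR-214, hsa-miR-4454 and bta-miR-335 at the upper right.

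For PPHN against control, the question of the study, edgeR called 0 of 466 entries (0%) with the side in the model and 0 (0%) without it, and 55 (11.8%) and 54 (11.6%) had an unadjusted p under 0.05. DESeq2 with the side in the model called 14 of the 437 entries with an adjusted p (3.2%). For oar-miR-133 the difference between PPHN and control was 0.34 on the log2 scale, for bta-miR-335 it was 0.69 and for oar-let-7c 0.91, and the edgeR adjusted p was above 0.05 for each. For ipu-miR-214 the same model gave a log2 difference of -1.59, likewise not called.

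In the high libraries oar-miR-133 reached at most 221 CPM, bta-miR-199b at most 399 CPM and oar-miR-199a-3p at most 8976 CPM, and mmu-miR-126b-3p was at 26424 CPM or more in each of the 6. The fibroblast list summed to 25025 CPM in control 3, where mmu-miR-126b-3p was at its lowest of the high side, 26424 CPM. The list summed to 10097 CPM in control 6, with 47702 CPM of mmu-miR-126b-3p, and to 11639 CPM in PPHN 7, with 72011 CPM. In PPHN 12 it summed to 14108 CPM, with 32136 CPM of mmu-miR-126b-3p. In PPHN 9, with 29984 CPM of mmu-miR-126b-3p, the list had its lowest sum of the high side, 7758 CPM. In control 1, with the most mmu-miR-126b-3p of the high side, 80913 CPM, the list summed to 14047 CPM. The relation of these levels to each other, and to the part of other cell types, was not tested.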

How the data were processed

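A table of raw read counts for 470 miRNA entries in 12 libraries was deposited by the authors, per the file headers. The submitters' processing notes name Bowtie 1.1.1 and Trim Galore 0.2.5. No settings, genome build or miRNA reference were given in the sources used here. Entries carry miRBase names of many species, and 149 join several names, so near-identical entries can share reads (12 pairs held nearly equal counts). The table's totals are not the sequencing depth.

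Libraries were placed by the CPM of oar-miR-143 over all entries. The 4 miR-143 and miR-145 entries were then removed before library sizes were set. The side difference was tested with edgeR 4.0.16 in R 4.3.3 (TMM, filterByExpr, which removed 0 entries, robust quasi-likelihood fit, surgery as covariate). Adjustment was by Benjamini-Hochberg over 466 entries, with a threshold of 0.05. Exact permutation tests moved the side within surgery groups. Alternatives used DESeq2 1.42.0, limma-voom 3.58.1, other scalings, filters and covariates, and leaving out libraries. The scripts were tested on simulated data.

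The rule for naming took, for each direction, the 10 entries of lowest p at 10 CPM or more, the 5 most abundant, 2 per list and some fixed names; not all 66 are described. The division of the libraries, the members and the 22 lists were chosen with earlier results of these data known. Neighbouring hairpins and genes (within 10000 bases) were looked up in a sheep gene table, assembly ARS-UI_Ramb_v3.0.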

Additional observations from a re-analysis of the deposited data

Results flagged for a closer look

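Within each side of 6 libraries, the highest and the lowest library of the named entries was compared with the rest by Dixon's test at 95%. Of 90 tests of an entry on a side, 9 found a library that stood apart, where chance gives about 5% of them. On the high side, control 3 held 8976 CPM of oar-miR-199a-3p (others 2134 to 4676 CPM), control 6 held 15770 CPM of oar-miR-181a (others 7278 to 8399 CPM) and 957 CPM of bta-miR-486 (others 56.2 to 212 CPM). PPHN 7 held 10.4 CPM of mml-miR-6529-3p (others 15.7 to 18.8 CPM). PPHN 9 held 98.4 CPM of oar-miR-200b (others 0 to 36.7 CPM) and 21.7 CPM of hsa-miR-615-3p (others 0 to 4.29 CPM). On the low side, control 5 held 2062 CPM of bta-miR-181b (others 354 to 986 CPM) and 585 CPM of bta-miR-486 (others 14.9 to 215 CPM), and control 2 held 199 CPM of hsa-miR-222-5p (others 11.8 to 66.9 CPM).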

How the results depend on the processing

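The 45 named entries had 1071 values under other settings, of which 1047 kept their direction. Many of these entries were named for a low p in these data. Every setting also reused all or part of the same 12 libraries, so the count is no independent test. The count of side differences past the edgeR threshold, 0, was 24 with DESeq2, 1 without the surgery covariate (bta-miR-199b), 3 with the level of miR-143 as a continuous covariate (rno-miR-133c, oar-miR-133 and ggo-miR-760), and 0 to 8 when leaving out each library. The surgery count was 14 with DESeq2 and 0 to 1 when leaving out each library. The same ranges were 0 to 1 within control, 0 to 6 within PPHN and 0 to 5 for the difference between them. Entries whose sides did not overlap numbered 12 without control 2, PPHN 8 and PPHN 11, the libraries poor in miR-126, against 5. The median of the p53-linked list was 0.17 without these 3, against -0.16. The difference of the log2 level of miR-126 ranged from 3.10 to 5.02 when leaving out each library, that of counts outside miR-143 and miR-145 from -341822 to 2572140 and that of entries at 0 counts from -5.20 to 0.167.

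The direction reversed for 8 entries under some setting. In the 9 libraries richer in miR-126, hsa-miR-222-5p had a log2 fold change of 0.14. There it was -0.41 for mmu-miR-126b-3p, -0.17 for bta-miR-126-5p, -0.55 for bta-miR-486, 0.15 for cfa-miR-31 and -0.31 for bta-miR-204. With the miR-126 level as a covariate it was -0.053 for bta-miR-181b, -0.59 for bta-miR-486, 0.46 for cfa-miR-31 and -0.16 for bta-miR-204. With upper-quartile scaling it was -0.015 for bta-miR-486 and -0.10 for oar-miR-22-3p, which was -0.021 with miR-143 and miR-145 in the library sizes. Leaving out each library gave -0.61 to 0.83 for bta-miR-486 and -0.089 to 0.14 for oar-miR-22-3p. The cause was not tested. No paired analysis was possible because the 2 surgery groups share no replicate number. Leaving out the filter changed nothing, since it removed no entry. With 6 libraries a side and a common biological coefficient of variation of 0.707, the precision of small differences was limited, and entries near 3 counts give no usable fold.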
